A study of Mus musculus with 6 samples.

Results

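The genes of the mitochondrial respiratory chain, complexes I to V, were read in whole mouse kidneys as 95 members of a table of 55401 Ensembl gene IDs. Members were chosen by symbol: nuclear genes named Nduf (complex I), Sdha to Sdhd (complex II), Uqcr (complex III), Cox4 to Cox8 with a subunit letter (complex IV) and Atp5 (complex V), and the protein-coding genes of the mitochondrial chromosome, with at least 60 counts over the 6 libraries. Of 108 matching IDs, 8 were dropped because the symbol ends as that of a pseudogene, and 5 were under the minimum. One of the 8, Ndufb1-ps, is the annotation's symbol for a subunit gene of complex I, and was at 9.36, 9.80 and 9.76 CPM (counts scaled to library size) in DKD and 14.2, 9.47 and 9.27 CPM in control kidneys. Cox8b, with 57 counts in all, lay just outside it, and Ndufs6b, with 276 counts, was the lowest inside. The 95 members comprised 82 nuclear-encoded and 13 mitochondrially encoded genes: 39 and 7 in complex I, 4 and 0 in complex II, 8 and 1 in complex III, 14 and 3 in complex IV, and 17 and 2 in complex V. All 95 also passed the low count filter of the test. The naming rule leaves out Cox4i1, Cox4i2, Cyc1 and Ndufab1, which are subunits too, and Cycs, the electron carrier cytochrome c. Their joint median and the values of Cycs are given with the related gene lists.

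Poly(A) RNA was sequenced from whole kidneys, 3 libraries from mice labelled DKD (diabetic kidney disease) and 3 from control mice. The labels enter DKD and Control as the genotype and give no strain, age, sex, way of inducing diabetes or treatment of the controls. They do not say that each library is a separate animal, so p-values measure how far these libraries differ, and that spread may be technical. Because whole kidneys were sampled, fewer cells of a type and less RNA per cell cannot be told apart.

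The respiratory chain passes electrons from NADH (at complex I) and from succinate (at complex II) through ubiquinone to complex III, and by cytochrome c to complex IV, which reduces oxygen. Complexes I, III and IV pump protons, and complex V, the ATP synthase, uses the gradient to make ATP. Complex II is encoded wholly in the nucleus, whereas the other complexes combine nuclear subunits with subunits made in the mitochondrion. In the kidney the proximal tubule is rich in mitochondria, which power the reabsorption of solutes.

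Library totals were 77417638, 71588579 and 77161106 counts in DKD replicates 1 to 3 and 64816622, 68906395 and 72845799 in control replicates 1 to 3. A library without a count for a gene could hold up to 3 counts of it, 0.0353 to 0.0505 CPM (the counts scaled to library size with TMM factors), which covers counting error only. Libraries stood apart within both groups. DKD replicate 1 held liver transcripts: 14 hepatocyte markers summed to 4097 CPM there, against 285 and 352 CPM in the other DKD libraries and 265 to 353 CPM in the controls. DKD replicate 3 held 14.6 CPM of 6 adipocyte markers, against 0.368 and 2.95 CPM in DKD replicates 1 and 2 and 0.0564 to 0.5 CPM in the controls. Control replicate 1 was the highest of the 6 libraries for 76 of the 82 nuclear-encoded members, where this was so for 21.6% of all genes tested. Among other genes with a mean of 10 CPM or more, it was so for 1332 of 6763 with transcripts of 2000 nucleotides and over. For 1000 to under 2000 nucleotides the number was 1138 of 2104. For 500 to under 1000 it was 404 of 579, and for under 500 it was 55 of 92. Results are therefore given with and without these libraries where they turn on them.

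The series was made to profile histone methyltransferases in DKD, and the same comparison gives the levels of the respiratory chain transcripts. No member passed the test between DKD and control kidneys. With the quasi-likelihood test of edgeR on all 6 libraries, 0 of 95 members and 0% of the 19197 genes tested had an adjusted p under 0.05 in either direction. The smallest adjusted p of a member was 0.189, for Sdha. At an unadjusted p under 0.05, 6 members were lower and 1 was higher in DKD, which is 6.32% and 1.05% of the members, against 7.05% lower and 12.2% higher over all genes. Of other genes with a mean of 10 CPM or more, 692 of 6763, 138 of 2104, 24 of 579 and 2 of 92 were higher, from the longest class to the shortest. Lower were 762, 338, 59 and 8 of them. DESeq2 called 1 member, Sdha, lower (over all genes tested, 3.28% lower and 7.08% higher).

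The fitted levels nonetheless lay mostly on one side. Of the nuclear-encoded members, 74 of 82 had a lower fitted level in DKD, as had 13 of 13 mitochondrially encoded members, against 47.6% of all genes. Of other genes with a mean of 10 CPM or more, 3958 of 6763 with transcripts of 2000 nucleotides and over were lower. In the shorter length classes given above, in the same order, these were 1499 of 2104, 436 of 579 and 68 of 92. The median log2 difference, DKD minus control, was -0.19 over the nuclear-encoded members and -0.08 over the mitochondrially encoded ones, beside 0.02 over all genes. It was lowest for complex II, at -0.30, followed by complex III (-0.24), complex V (-0.20), complex I (-0.19) and complex IV (-0.10), counting nuclear-encoded members. Without DKD replicate 1 the medians were -0.28 over the nuclear-encoded and -0.14 over the mitochondrially encoded members, and -0.27, -0.39, -0.33, -0.21 and -0.28 for complexes I to V. CPM values of DKD libraries lay below every control for 11 of 82 nuclear-encoded and 1 of 13 mitochondrially encoded members, in all 12.6%, against 11.5% of all genes, a share near the background. No member had all DKD values above the controls, against 13.8% of all genes. For other genes with a mean of 10 CPM or more this share was 10.6%, 6.75%, 3.63% and 2.17%, from the longest class to the shortest.

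The size of this difference depended on control replicate 1. The mean log2 CPM of the nuclear-encoded members, minus the control mean, was -0.00, -0.22 and -0.21 in DKD replicates 1 to 3 and 0.32, -0.15 and -0.17 in control replicates 1 to 3. DKD replicates 2 and 3 were thus the lowest libraries by a small margin, DKD replicate 1 lay between the control values, and control replicate 1 stood above all others. Without control replicate 1 the median of the nuclear-encoded members was -0.00, beside 0.03 over all genes, and 43 of 82 had a lower fitted level. Without it the median turned to 0.02 for complex III, 0.09 for complex IV and 0.01 for complex V, and was -0.02 for complex I and -0.24 for complex II.

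**Figure D1:**
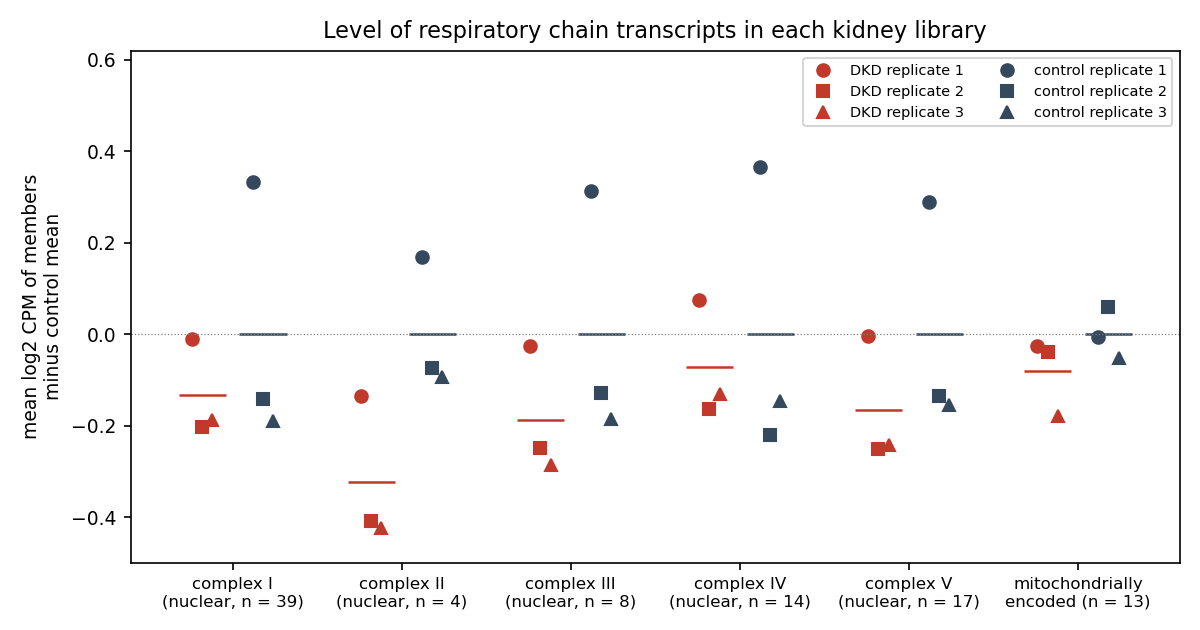
Mean log2 CPM of the members of each complex in each library, minus the mean of the 3 controls, for nuclear-encoded members of complexes I to V and for the 13 mitochondrially encoded members; points are libraries and bars are group means. Control replicate 1 lies above the other 5 libraries in each nuclear-encoded group, and in complex II all 3 DKD libraries (-0.14, -0.41 and -0.42) lie below the lowest control (-0.09).

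DKD replicate 1, the library with liver transcripts, was higher than the other DKD libraries for 74 of 82 nuclear-encoded members, against 7498 of all 19197 genes tested. It was also so for 13 of 13 genes of the tricarboxylic acid cycle and 54 of 78 mitochondrial ribosomal proteins. For cytosolic ribosomal proteins it was so for 10 of 86. Leaving out DKD replicate 1 changed the calls. Without it, edgeR called 6 of 95 members lower, which is 6.32% against 5.84% of all genes, and 1 member higher, against 9.67% of all genes. The members that fell in that fit were Ndufs1, Ndufv1, Sdha, Sdhb, Atp5a1 and Atp5b, and the member that rose was Cox6b2. Limma-voom was run with a quality weight for each library, estimated from these same counts. The weights were 0.302, 2.07 and 1.18 for DKD replicates 1 to 3 and 0.502, 1.78 and 1.52 for control replicates 1 to 3. With them, 7 members were called lower (7.37%, against 7.78% of all genes) and 2 higher (against 9.93%). Those were the same 6 and Uqcrc2, and Cox6b2 and Ndufs5. The share of members called lower was thus close to that of all genes in both fits. Other genes with a mean of 10 CPM or more follow, from the longest class to the shortest. EdgeR without DKD replicate 1 called 642 of 6763, 288 of 2104, 58 of 579 and 15 of 92 lower. It called 3 of 5, 3 of 22, 0 of 41 and 0 of 14 nuclear-encoded members lower. For limma-voom these were 886, 305, 64 and 14 other genes, and 3, 4, 0 and 0 members. Higher were 557, 128, 30 and 0 other genes with edgeR and 615, 153, 36 and 1 with limma-voom. DKD replicates 2 and 3 lay below every control for 40 of 82 nuclear-encoded members, against 23.6% of all genes. Among other genes with a mean of 10 CPM or more, this held for 2306 of 6763 in the longest class. In the shorter classes it held for 934 of 2104, 215 of 579 and 21 of 92.

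**Figure D2:**
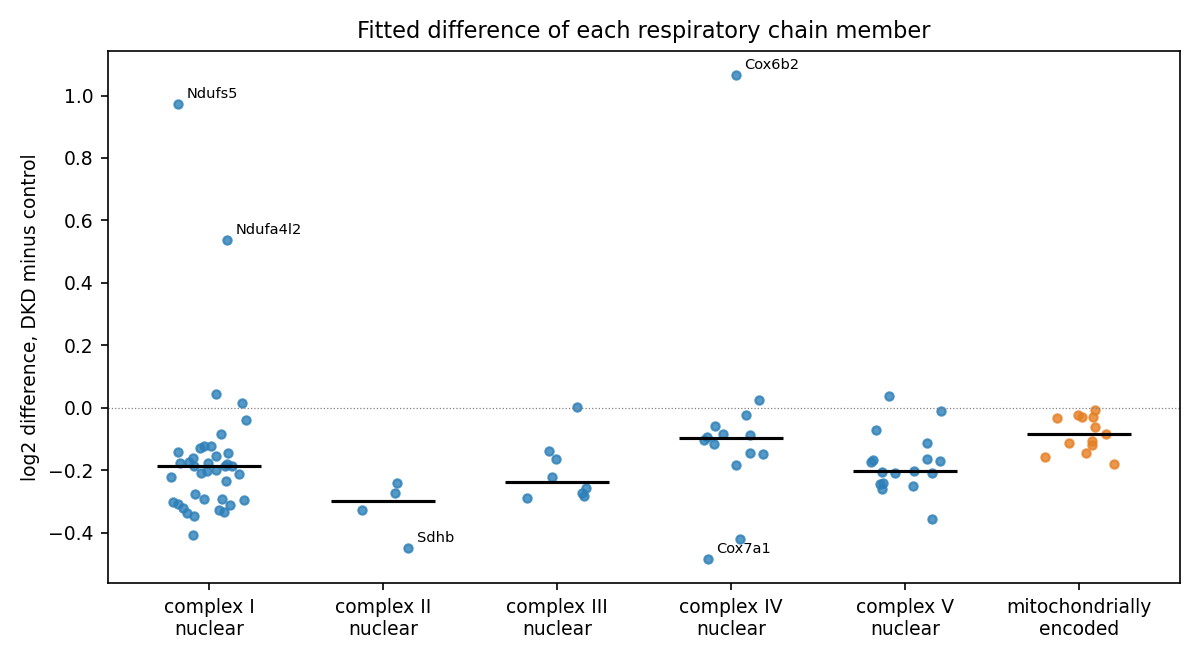
Log2 difference, DKD minus control, from the edgeR fit on 6 libraries, for each of the 95 members by complex; points are genes and bars are medians. Most points lie between -0.4 and 0, and Ndufs5 (0.97) and Cox6b2 (1.07) stand above the rest; no member passed the adjusted threshold.

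Complex II, succinate dehydrogenase, links the tricarboxylic acid cycle to the chain. Its flavin-carrying subunit Sdha was measured at 802.5, 709 and 688 CPM in DKD replicates 1 to 3, and at 932, 906 and 921 CPM in control replicates 1 to 3. All DKD values lay below all controls, and the controls were close together. The log2 difference was -0.33 ± 0.11 (SE; edgeR adjusted p = 0.189), and without DKD replicate 1 Sdha fell by 0.41 on the log2 scale (edgeR adjusted p = 0.0267). The iron-sulphur subunit Sdhb had 347.5, 275 and 262 CPM in the DKD libraries and 462.5, 386 and 359 CPM in the controls. Its groups did not overlap either, although DKD replicate 1 came close to the lowest control. The log2 difference of Sdhb was -0.45 ± 0.16 (SE; edgeR adjusted p = 0.194), and without DKD replicate 1 it fell by 0.59 (adjusted p = 0.0264).

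The 2 subunits that anchor complex II in the membrane and bind ubiquinone had values of the same order. Sdhc was at 347.1, 293 and 292 CPM in DKD and at 433, 347.5 and 344 CPM in control kidneys, where DKD replicate 1 overlapped the controls. Sdhd was at 276, 220 and 229 CPM in DKD and at 333, 260.5 and 264 CPM in control kidneys, with the same overlap. Their log2 differences were -0.27 ± 0.14 and -0.24 ± 0.15 (SE), with edgeR adjusted p of 0.320 and 0.394. Complex II kept a median below 0 without control replicate 1, at -0.24, with no member called, as for 0.0298% of all genes called higher and 0.00497% lower.

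**Figure D3:**
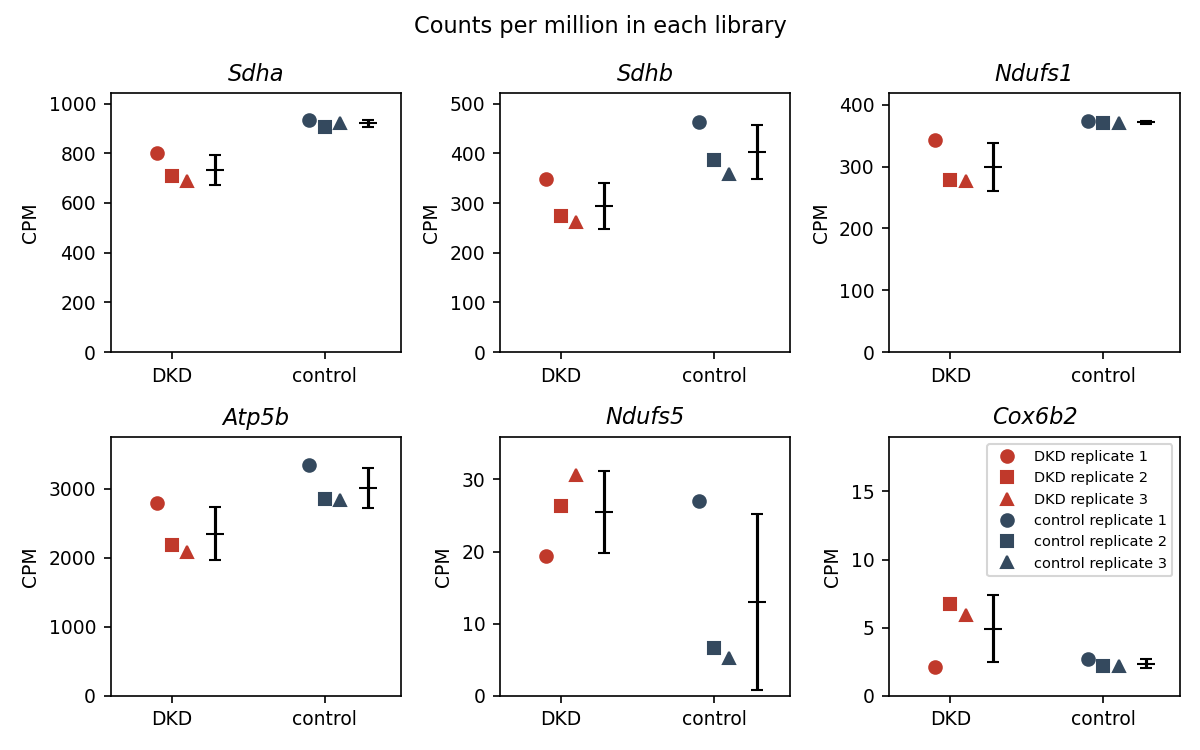
CPM of 6 members in each library, with the mean and SD of each group (n = 3) beside the points; each axis starts at 0. Sdha, Sdhb, Ndufs1 and Atp5b show every DKD library below every control, whereas control replicate 1 lies among the DKD libraries for Ndufs5 and DKD replicate 1 lies level with the controls for Cox6b2.

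The promoters of complex II genes are shown because this complex had the lowest median, together with that of Ndufs5, whose values spread most between controls. Nuclear respiratory factor 1 (NRF1), GABPA (an ETS factor), YY1 and ERRA are known to bind promoters of respiratory chain genes. Sequences are from RefSeq (GRCm38.p6) and run 5′ to 3′ on the gene's strand from 250 bases before the start to 50 bases after it, with motif matches on either strand in capitals. A promoter was listed for 66 of the 82 nuclear-encoded members, and Sdhc was not among them. The stretches are chr13:74350191-74350490 (minus strand) for Sdha, chr4:140961021-140961320 (plus strand) for Sdhb, chr9:50603800-50604099 (minus strand) for Sdhd and chr4:123718137-123718436 (minus strand) for Ndufs5.
Sdha: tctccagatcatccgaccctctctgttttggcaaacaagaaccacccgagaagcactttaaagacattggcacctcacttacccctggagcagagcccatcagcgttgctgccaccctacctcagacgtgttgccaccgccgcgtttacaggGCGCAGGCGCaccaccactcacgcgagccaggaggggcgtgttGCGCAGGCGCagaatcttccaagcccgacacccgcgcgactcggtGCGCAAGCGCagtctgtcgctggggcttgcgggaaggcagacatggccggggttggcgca
Sdhb: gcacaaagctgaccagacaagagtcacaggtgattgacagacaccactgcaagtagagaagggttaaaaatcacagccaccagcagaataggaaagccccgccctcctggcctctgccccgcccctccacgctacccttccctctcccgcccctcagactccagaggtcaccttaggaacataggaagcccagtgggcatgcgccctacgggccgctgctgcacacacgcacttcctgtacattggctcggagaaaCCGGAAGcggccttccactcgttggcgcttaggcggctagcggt
Sdhd: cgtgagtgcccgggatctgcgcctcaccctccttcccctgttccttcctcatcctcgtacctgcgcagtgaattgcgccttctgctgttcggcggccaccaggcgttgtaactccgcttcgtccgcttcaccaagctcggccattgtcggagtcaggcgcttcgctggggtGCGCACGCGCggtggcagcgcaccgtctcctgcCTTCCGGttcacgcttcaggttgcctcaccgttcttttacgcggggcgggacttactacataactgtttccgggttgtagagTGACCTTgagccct
Ndufs5: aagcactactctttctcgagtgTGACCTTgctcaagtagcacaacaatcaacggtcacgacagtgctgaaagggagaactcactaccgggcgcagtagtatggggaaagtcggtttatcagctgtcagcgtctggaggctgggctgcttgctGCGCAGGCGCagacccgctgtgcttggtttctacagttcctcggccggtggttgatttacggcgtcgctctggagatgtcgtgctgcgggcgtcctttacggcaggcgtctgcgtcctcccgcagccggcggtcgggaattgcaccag
Capitals mark 3 NRF1 matches in Sdha, 1 ETS match in Sdhb, 1 match each for NRF1, ETS and ERRA in Sdhd, and 1 each for NRF1 and ERRA in Ndufs5. The different motifs did not overlap one another in these 4 stretches.

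The NRF1 motif, GC-rich with 1 free base, was found, on either strand, in 24.2% of the 66 member promoters and in 4.78% of the 27025 promoters of all genes, noncoding genes included. The ETS motif CCGGAAG was in 22.7% of member promoters and 9.12% of all, the YY1 motif AAGATGG in 15.2% and 6.48%, and the ERRA motif AAGGTCA in 12.1% and 4.66%. By complex, NRF1 matches were in 2 of 3 promoters of complex II, 7 of 32 of complex I, 1 of 5 of complex III, 1 of 11 of complex IV and 5 of 15 of complex V. Atp5b, Ndufv1 and Cox6b2 held no match to any of the 4 motifs in this window. These letters are a description of the sequence and do not show binding.

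Complex I oxidises NADH, and 35 of its 39 nuclear-encoded members had a lower fitted level in DKD. Its 7 nuclear core subunits, which carry the flavin and the iron-sulphur clusters and were grouped after the values were seen, had a median log2 difference of -0.31, against -0.18 for the other 32; without control replicate 1 these were -0.21 and -0.01. Ndufs1, the largest core subunit, was at 343, 278 and 276 CPM in DKD and at 374, 370.1 and 370.1 CPM in control kidneys. The controls were nearly equal, and every DKD library was lower. Its log2 difference was -0.31 ± 0.12 (SE; edgeR adjusted p = 0.223), and Ndufs1 fell by 0.43 without DKD replicate 1 (adjusted p = 0.0204). Ndufv1, which binds NADH, had 311, 242 and 241 CPM in DKD and 374, 324 and 312 CPM in control kidneys. DKD replicate 1 was just below the lowest control. The log2 difference of Ndufv1 was -0.35 ± 0.14 (SE; edgeR adjusted p = 0.244), and without DKD replicate 1 it fell by 0.49 (adjusted p = 0.0296).

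Ndufs7, a core subunit near the ubiquinone site, had 110, 101 and 89.3 CPM in DKD and 146, 116.5 and 117 CPM in control kidneys. All DKD values lay below all controls. Its log2 difference was -0.34 ± 0.13 (SE), with an edgeR adjusted p of 0.227. Ndufa5, an accessory subunit, did not overlap either, at 23.6 to 26.7 CPM in DKD and 27.0 to 31.6 CPM in control kidneys. Ndufa4, which purifies with complex I but is now counted as a subunit of complex IV, had the highest level per kilobase of the nuclear-encoded Nduf genes, 305 CPM per kilobase over all libraries. It was at 192, 158 and 147 CPM in DKD and 257, 183 and 181 CPM in control kidneys, with a log2 difference of -0.32 ± 0.17 (SE; edgeR adjusted p = 0.352).

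Ndufs5, an accessory subunit on the intermembrane space side, was the exception within complex I. It was at 19.4, 26.4 and 30.6 CPM in DKD and at 27.1, 6.56 and 5.29 CPM in control kidneys. Control replicate 1 lay among the DKD values, whereas control replicates 2 and 3 were far below them. The log2 difference was 0.97 ± 0.65 (SE; edgeR adjusted p = 0.447), 2.10 without control replicate 1 (adjusted p = 0.0992), and Ndufs5 passed the weighted limma-voom test (adjusted p = 0.0190). In that test control replicate 1 had a weight of 0.502, against 1.78 and 1.52 for control replicates 2 and 3. Genes outside the chain that were also far lower in control replicates 2 and 3 than in the other libraries, named after their values were seen, were Mettl7a2, at 90.4, 105 and 145 CPM in DKD and 87.2, 0.97 and 1.54 CPM in control kidneys, and Tlr12, at 12.8, 24.7 and 21.1 CPM in DKD and 20.3, 0.333 and 0.268 CPM in control kidneys. Nnt, the proton-pumping transhydrogenase of the inner membrane, is listed under a pair of IDs with opposite patterns: the first had counts of 0, 8936 and 10500 in DKD and 9501, 0 and 0 in control libraries, and the second 17778, 1315 and 418 in DKD and 994, 14999 and 17101 in control libraries. At Ndufs5, Mettl7a2 and Tlr12, control replicates 2 and 3 thus stood apart from the other libraries. For Mettl7a2 the lowest DKD value (90.4 CPM) lay just above control replicate 1 (87.2 CPM), so its groups did not overlap. At Nnt the division was a different one, with DKD replicate 1 on the side of control replicates 2 and 3. Neither division followed the group labels, and their part in the value of Ndufs5 was not tested.

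Ndufa4l2, a low-level relative of Ndufa4 that is known to respond to hypoxia, was at 3.80, 2.22 and 4.30 CPM in DKD and 1.72, 1.80 and 3.58 CPM in control kidneys. The groups overlapped, with control replicate 3 among the DKD values (log2 difference 0.54 ± 0.39, SE; edgeR adjusted p = 0.477). The lowest difference in the complex was that of Ndufb4c, -0.41 ± 0.26 (SE; edgeR adjusted p = 0.422), where control replicate 1, at 32.5 CPM, was well above the other 5 libraries, at 15.2 to 18.4 CPM. The remaining nuclear-encoded members of complex I lay between -0.33 and 0.04.

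Complex III passes electrons from ubiquinol to cytochrome c, and 7 of its 8 nuclear-encoded members had a lower fitted level in DKD. Uqcrc2, a core protein, was at 496, 429 and 432 CPM in DKD and 603.5, 529 and 526 CPM in control kidneys, without overlap. Its log2 difference was -0.29 ± 0.12 (SE; edgeR adjusted p = 0.244), and weighted limma-voom called it lower (adjusted p = 0.0404). Uqcrc1, the other core protein, was at 543, 447 and 445 CPM in DKD and 658, 537 and 521 CPM in control kidneys. Uqcrfs1, the Rieske iron-sulphur protein, was at 398, 316.5 and 303 CPM in DKD and 475, 382 and 382 CPM in control kidneys. In both, DKD replicate 1 overlapped the controls and DKD replicates 2 and 3 lay below them, with log2 differences of -0.26 ± 0.14 and -0.28 ± 0.15 (SE; edgeR adjusted p of 0.360 and 0.347). Uqcrb, a ubiquinone-binding subunit, had means close together, at 105 ± 5.01 CPM in DKD and 104 ± 15.3 CPM in control kidneys (SD, n = 3 each; log2 difference 0.00 ± 0.12, SE).

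Complex IV, cytochrome c oxidase, had the median closest to 0, and 12 of its 14 nuclear-encoded members had a lower fitted level. Several of its subunits exist as a widespread form and a tissue form. The widespread forms dominated: Cox6a1 stood at 486 CPM per kilobase, Cox7a2 at 223 and Cox8a at 446, over all libraries, whereas the heart and skeletal muscle forms Cox6a2 and Cox7a1 stood at 1.08 and 7.39. Cox6a1 was at 294, 268 and 255 CPM in DKD and 365, 244.5 and 240 CPM in control kidneys, so that control replicate 1 alone exceeded all DKD values (log2 difference -0.06 ± 0.18, SE). Cox8a, at 277, 209 and 213 CPM in DKD and 343, 215 and 215 CPM in control kidneys, also had its highest value in control replicate 1, and its other controls lay among the DKD values (log2 difference -0.15 ± 0.22, SE). Adjusted p in the edgeR fit were 0.884 for Cox6a1 and 0.737 for Cox8a.

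Cox6b2, the form of Cox6b known from testis, had the highest log2 difference of all members, at a low level. It was at 2.13, 6.76 and 5.90 CPM in DKD and 2.73, 2.20 and 2.14 CPM in control kidneys. DKD replicates 2 and 3 were above every control, whereas DKD replicate 1 was below every control. The log2 difference was 1.07 ± 0.42 (SE; edgeR adjusted p = 0.234), and without DKD replicate 1 Cox6b2 rose by 1.42 (adjusted p = 0.00865). Its widespread partner Cox6b1, at 183 ± 20.7 CPM in DKD and 199 ± 43.1 CPM in control kidneys (SD, n = 3 each), differed by -0.12 ± 0.17 (SE; edgeR adjusted p = 0.736).

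The other tissue forms of complex IV were at low levels. Cox7a1 was at 2.57, 2.25 and 2.44 CPM in DKD and 4.51, 2.77 and 2.88 CPM in control kidneys, without overlap, with a log2 difference of -0.48 ± 0.26 (SE; edgeR adjusted p = 0.351). Cox6a2 was at 1.47, 0.234 and 0.518 CPM in DKD and 1.08, 0.348 and 0.762 CPM in control kidneys, which overlapped. The summed level of 8 skeletal and cardiac muscle markers was 2.18, 2.53 and 2.07 CPM in DKD and 1.23, 2.05 and 1.28 CPM in control kidneys, and their part in these values was not tested. Cox8b, under the count minimum, had 0, 4 and 49 counts in DKD and 0, 0 and 4 counts in control libraries. The library with 49 counts is the one that held adipocyte transcripts, including 9.57 CPM of Ucp1, the uncoupling protein of brown fat, against 0.571 CPM in DKD replicate 2 and 0 in the other libraries; the part of this in the Cox8b counts was not tested. Cox7b2 and Cox8c had no count.

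Complex V, the ATP synthase, held the most abundant nuclear-encoded members, and 16 of its 17 had a lower fitted level in DKD. Atp5b, the catalytic beta subunit, stood at 1397 CPM per kilobase over all libraries and Atp5a1, the alpha subunit, at 890. Atp5b had 2786, 2179 and 2078 CPM in DKD and 3338, 2853 and 2830 CPM in control kidneys. DKD replicate 1 was just below the lowest control, and the other DKD libraries were well below it. The log2 difference was -0.36 ± 0.16 (SE; edgeR adjusted p = 0.270), and without DKD replicate 1 Atp5b fell by 0.51 (adjusted p = 0.0281). Atp5a1 had 2297, 1862 and 1845 CPM in DKD and 2570, 2302 and 2313 CPM in control kidneys, where DKD replicate 1 was barely below the lowest control. Its log2 difference was -0.26 ± 0.14 (SE; edgeR adjusted p = 0.338), and without DKD replicate 1 it fell by 0.38 (adjusted p = 0.0462).

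The 5 subunits of the catalytic F1 head, grouped after their values were seen, had a median of -0.24, against -0.17 for the other 12 members of complex V; without control replicate 1 these were -0.12 and 0.02. Atp5f1, a subunit of the peripheral stalk, had 532, 416 and 414 CPM in DKD and 616, 498 and 506 CPM in control kidneys, with a log2 difference of -0.25 ± 0.15 (SE; edgeR adjusted p = 0.394). The ring that turns in the membrane is built from identical mature proteins encoded by Atp5g1, Atp5g2 and Atp5g3. Atp5g3 was the most abundant of them, at 637 CPM per kilobase, and had 437 ± 71.8 CPM in DKD and 473 ± 50.3 CPM in control kidneys (SD, n = 3 each). Their log2 differences were -0.01 ± 0.17 for Atp5g1, -0.16 ± 0.15 for Atp5g2 and -0.11 ± 0.15 for Atp5g3 (SE), with groups that overlapped in each. Atp5s, an assembly-related member at 11.7 ± 0.251 CPM in DKD and 11.4 ± 1.55 CPM in control kidneys (SD, n = 3 each), had the highest value of complex V, 0.04 ± 0.14.

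The 13 mitochondrially encoded members took 12.4%, 13.5% and 12.5% of all counts in DKD replicates 1 to 3 and 11.4%, 13.0% and 12.2% in control replicates 1 to 3. They are transcribed as long precursors from both strands of the mitochondrial chromosome, and their log2 differences lay close together, between -0.18 and -0.01. Among the members as counted, mt-Co1, a catalytic subunit of complex IV, stood highest, at 24740 CPM per kilobase over all libraries. This ranking and the shares leave out reads assigned to near-identical nuclear copies. Mt-Co1 had 38510, 39290 and 35640 CPM in DKD and 36130, 40930 and 38850 CPM in control kidneys. The groups overlapped (log2 difference -0.03 ± 0.13, SE; edgeR adjusted p = 0.917). Mt-Cytb, the mitochondrial subunit of complex III, had 17630, 17370 and 14650 CPM in DKD and 17910, 19610 and 17820 CPM in control kidneys. It was the only one of the 13 without overlap, and DKD replicate 1 lay just below the lowest control (log2 difference -0.16 ± 0.14, SE; edgeR adjusted p = 0.562).

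Of the mitochondrially encoded subunits of complex I, mt-Nd3 had the lowest value, -0.18 ± 0.20 (SE; edgeR adjusted p = 0.659), with 613 CPM in control replicate 1 and 370 to 426 CPM in the other 5 libraries. Mt-Nd6, the one member encoded on the other strand, had 2609 ± 213 CPM in DKD and 2624 ± 394 CPM in control kidneys (SD, n = 3 each; log2 difference -0.01 ± 0.15, SE). The subunits of complex V, mt-Atp6 and mt-Atp8, differed by -0.12 ± 0.13 and -0.11 ± 0.12 (SE). Scaling by library size alone shifted the all-gene median by 0.15; with it, 2 of the 13 had a lower fitted level and their median was 0.06, which is -0.11 relative to all genes. Reads of these genes can be shared with near-identical nuclear copies: Gm10925, Gm28437 and Gm28661 together held 2.34% to 2.69% of the counts of DKD libraries and 2.33% to 2.50% of those of controls. Over all libraries these copies stood at 13000, 10630 and 10890 CPM per kilobase, beside 12590 for mt-Atp6, 10860 for mt-Co3 and 11220 for mt-Co2. Gm28438, Gm28439 and Gm29216 held further such counts, at 1210, 5202 and 6905 CPM per kilobase. Levels and shares printed for the members leave all these counts out.

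The ratio of summed mitochondrially encoded to summed nuclear-encoded counts does not depend on scaling. It was 7.07, 8.45 and 7.75 in DKD and 5.76, 7.78 and 7.32 in control kidneys. Control replicate 1 was lowest, and the other controls lay among the DKD values. On the log2 scale the mean was 2.95 ± 0.13 in DKD and 2.79 ± 0.23 in control kidneys (SD, n = 3 each). The difference of 0.17 was within the spread between replicates, and without control replicate 1 it was 0.04.

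**Figure D4:**
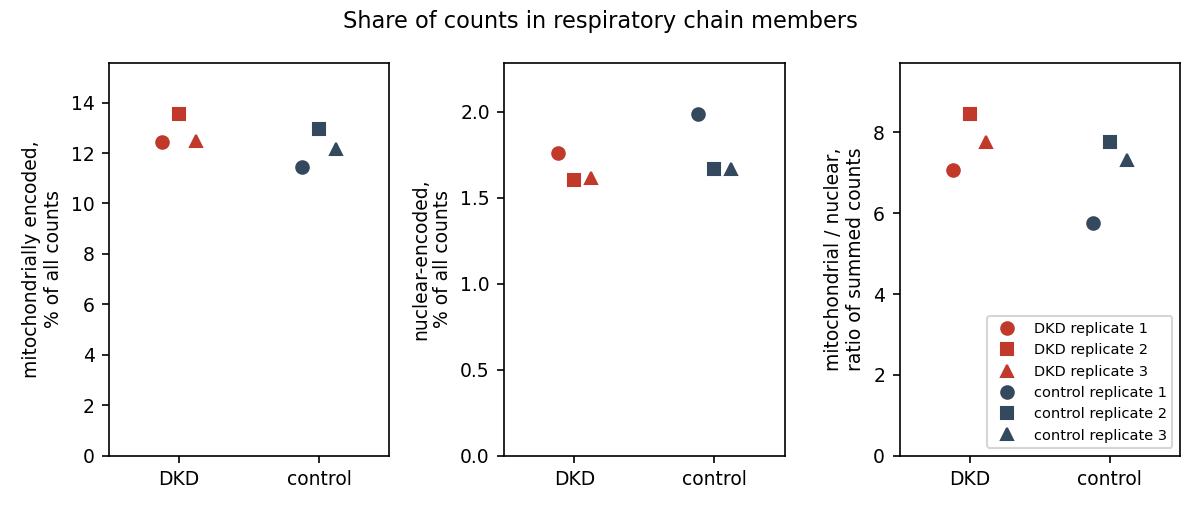
Share of each library's counts in the 13 mitochondrially encoded and the 82 nuclear-encoded members, and the ratio of the 2 sums; each point is a library and each axis starts at 0. The nuclear-encoded share is highest (1.99%) and the ratio lowest (5.76) in control replicate 1, and the other 5 libraries lie between 1.60% and 1.76%.

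Nuclear-encoded members were also set out by transcript length. Among nuclear-encoded members of 2000 nucleotides and over, which are Sdha, Sdhc, Ndufs1, Ndufa10 and Atp5a1, 3 of 5 had DKD values below all controls, as had 5 of 22 between 1000 and 2000, 2 of 41 between 500 and 1000 and 1 of 14 under 500 nucleotides. These are 60%, 22.7%, 4.88% and 7.14% of the classes, against 16.9%, 23.3%, 16.9% and 12% of other genes of the same lengths with a mean of 10 CPM or more. The medians were -0.27, -0.24, -0.17 and -0.20 in these classes, from the longest to the shortest, and -0.21, -0.11, 0.04 and 0.03 without control replicate 1. Those other genes had medians of -0.05, -0.13, -0.14 and -0.14, and of -0.07, -0.06, -0.01 and -0.05 without it. Control replicate 1 stood 0.10 above the control mean for the longest members, against 0.24, 0.37 and 0.39 for the shorter classes. Its excess was thus smallest in the class of the longest members. For those other genes the values were -0.04, 0.12, 0.22 and 0.16, from the longest to the shortest class, also lowest for the longest.

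**Figure D5:**
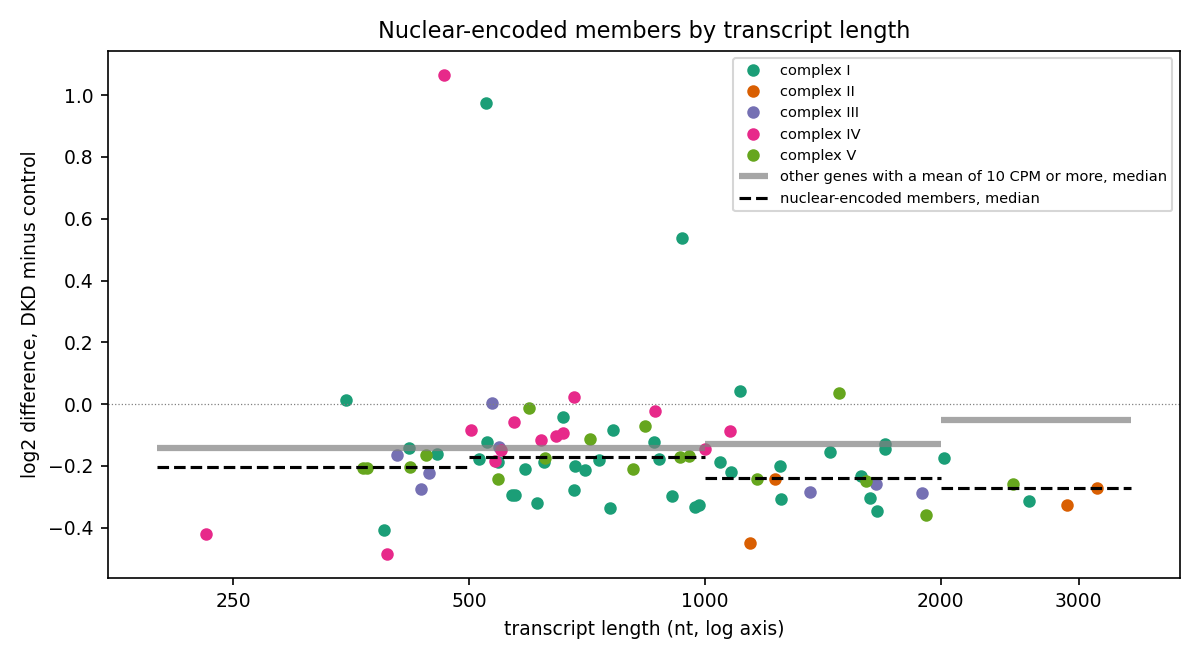
Log2 difference, DKD minus control, of each nuclear-encoded member against the length of its main transcript (log axis), coloured by complex; dashed lines are medians of the members and grey lines medians of other genes with a mean of 10 CPM or more, in 4 length classes. The dashed line lies furthest below the grey one for the 5 members of 2000 nucleotides and over (-0.27 against -0.05, and -0.21 against -0.07 without control replicate 1).

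Removing the trend of log2 CPM with transcript length in each library, an alternative chosen after the data were seen, left 0 members and 0% of all genes called by edgeR on all 6 libraries. The nuclear-encoded median was then -0.13. Without DKD replicate 1 and with the trend removed, 17 members were called lower, 17.9% against 11.6% of all genes, and 1 higher, Cox6b2, against 9.84% of all genes. Beside the 6 members named above and Uqcrc2, those 17 included Ndufa4, Ndufa10, Ndufs7, Ndufs8, Sdhc, Uqcrc1, Uqcrfs1, Atp5c1 and Atp5f1. By length class from longest to shortest, 5 of 5, 9 of 22, 3 of 41 and 0 of 14 nuclear-encoded members were called lower. Of other genes at 10 CPM or more, 1548 of 6763, 440 of 2104, 84 of 579 and 17 of 92 were.

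The genes listed as serving the chain without belonging to the 95 had medians below 0. In the edgeR fit on 6 libraries none of them was called, as for all genes. The subunits outside the naming rule and cytochrome c had a median of -0.29, and of -0.11 without control replicate 1. Cycs was at 349, 272 and 261 CPM in DKD and 471, 400 and 311 CPM in control kidneys (log2 difference -0.42 ± 0.19, SE; adjusted p = 0.274). Of the assembly factors of complex I, 17 of 17 had a lower fitted level and 9 had all DKD values below the controls (52.9%, against 11.5% of all genes), with a median of -0.26, and of -0.17 without control replicate 1. Their median length was 1573 nucleotides. For other genes of 1000 to under 2000 nucleotides with a mean of 10 CPM or more the share below was 23.3%. Ndufaf6 was at 18.1, 16.3 and 15.2 CPM in DKD and 23.5, 21.1 and 21.2 CPM in control kidneys, and fell by 0.49 without DKD replicate 1 (edgeR adjusted p = 0.0351). Assembly factors of complexes II, III, IV and V had medians of -0.26, -0.26, -0.19 and -0.24, and of -0.22, -0.18, -0.12 and -0.17 without control replicate 1. Atpaf1, which helps to assemble the F1 head, was at 25.2, 26.3 and 27.3 CPM in DKD and 38.2, 31.9 and 32.8 CPM in control kidneys, without overlap (log2 difference -0.38 ± 0.10, SE; edgeR adjusted p = 0.139).

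Of 20 regulators of mitochondrial biogenesis, 17 had a lower fitted level, with a median of -0.16, and of -0.20 without control replicate 1. Tefm, the elongation factor of mitochondrial transcription, was at 13.2, 10.8 and 10.1 CPM in DKD and 17.3, 18.2 and 15.6 CPM in control kidneys. Its groups did not overlap; the log2 difference was -0.58 ± 0.15 (SE; edgeR adjusted p = 0.133), and without DKD replicate 1 it fell by 0.71 (adjusted p = 0.0168). The 13 genes of the tricarboxylic acid cycle all had a lower fitted level, with a median of -0.24, and of -0.15 without control replicate 1; 4 had all DKD values below the controls (30.8%, against 11.5% of all genes). For other genes of 2000 nucleotides and over with a mean of 10 CPM or more this share was 16.9%, and the median length of the 13 genes was 2544 nucleotides. Of 78 mitochondrial ribosomal proteins, 73 had a lower fitted level and 20 did not overlap (25.6%, against 11.5% of all genes), with a median of -0.23, and of -0.10 without control replicate 1. Their median length was 1252 nucleotides. For other genes of 1000 to under 2000 nucleotides with a mean of 10 CPM or more the share was 23.3%, near that of this list. The 86 cytosolic ribosomal proteins had a median of -0.07, which turned to 0.07 without control replicate 1, and 8 did not overlap (9.3%). Control replicate 1 stood above the control mean in both ribosomal lists, by 0.26 and 0.33 on the log2 scale, as it did for the nuclear-encoded members.

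No marker of a cell type was called by edgeR on all 6 libraries, where the smallest adjusted p were 0.104 for proximal tubule, 0.103 for stroma and 0.136 for leukocyte markers. Of 18 proximal tubule markers, 17 had a lower fitted level and 11 had all DKD values below the controls (61.1%, against 11.5% of all genes), with a median of -0.46 on the log2 scale. Without control replicate 1 the median of these markers was -0.48, beside -0.00 over the nuclear-encoded members. The median length of the markers was 3052 nucleotides. For other genes of 2000 nucleotides and over with a mean of 10 CPM or more the share below was 16.9%. Their summed level was 29250, 21890 and 22020 CPM in DKD and 37200, 33680 and 32680 CPM in control kidneys, and none was at 0 in every library. DKD replicate 1 was the highest DKD library, as it was for the summed nuclear-encoded members, whose median, unlike that of these markers, depended on control replicate 1. The 9 leukocyte markers summed to 113, 177 and 224 CPM in DKD and 109, 105 and 124 CPM in control kidneys, and the 7 stroma and matrix markers to 232, 209 and 295 CPM in DKD and 85.8, 98.8 and 118 CPM in control kidneys. Medians were 1.54 and 1.28 for these lists, and 0.19 and 0.09 for markers of the thick ascending limb and distal tubule and of the collecting duct. The part of the cell makeup in the levels of the respiratory chain members was not tested.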

How the data were processed

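Poly(A) RNA of 3 DKD and 3 control kidneys was measured. The authors deposited raw read counts per gene, not normalised. The submitters' processing notes name GRCm39, HISAT2, StringTie, edgeR and fastp, without versions; the annotation and strand setting were not given in the sources used here, so reads of overlapping or near-identical genes may be shared. Symbols and transcript lengths came from a GRCm38 annotation, matched by Ensembl ID for 55141 IDs and all 95 members, and promoters from RefSeq (GRCm38.p6).

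Counts were tested with the quasi-likelihood test of edgeR 4.0.16 (R 4.3.3; robust, two-sided) after TMM scaling and filterByExpr, with Benjamini-Hochberg adjustment over 19197 genes at 0.05. CPM are scaled by TMM factors, and log2 CPM has a prior count of 2. Levels between genes are compared as CPM per kilobase of the shortest best-supported main transcript. Alternatives were other scalings and filters, DESeq2 1.42.0, limma-voom (limma 3.58.1) with sample quality weights, a replicate block, leaving out each library and, chosen after the data were seen, removing a length trend. The test was checked on simulated counts.

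Members and gene lists were chosen with earlier results of these data known, so lists are described by counts and medians without a test. The naming rule took all mitochondrially encoded and Sdh genes; in each other complex the 3 smallest p, the highest and lowest difference and the most abundant gene; the tissue forms; and up to 3 genes of each list, of which examples are printed, and 1 member is not reported here. Genes outside it were named after their values were seen.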

Additional observations from a re-analysis of the deposited data

How the results depend on the processing

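With edgeR, 0 members were called under RLE or upper quartile factors, library size alone, factors from nuclear genes, no low count filter, a filter of CPM 1 in 3 libraries, a fit that was not robust, the 50 most counted genes left out, and the length trend removed. Over the whole table these fits called 0 genes, except for 4 without the filter. DESeq2 called 1749 genes and 1 member, and weighted limma-voom 3401 genes and 9 members. Without DKD replicate 1 and with the length trend removed, 4275 genes and 18 members were called and the complex II median was -0.49. Leaving out 1 library at a time gave 0 to 3101 genes and 0 to 7 members, with the highest counts without DKD replicate 1. Leave-one-out medians ran from -0.33 to 0.022 for complex III and from -0.28 to 0.0080 for complex V, with the positive ends without control replicate 1. The cause was not tested.

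No paired design is stated in the labels; deviations of DKD and control libraries of the same number correlated at 0.0336, 0.0227 and 0.0344 across genes, and each DKD library correlated best with its own number. A fit with the replicate number as a block called 0 genes and 0 members, with medians of -0.17 (nuclear-encoded) and -0.09 (mitochondrially encoded), and turned Atp5g1 (0.0078) and Cox6a2 (-0.21).

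Values near 0 changed sign. With library size alone the log2 difference was 0.14 for Atp5g1, 0.033 for Atp5g3, 0.097 for Cox6a1, 0.036 for Cox6b1, 0.059 for Cox7a2, 0.064 for Cox7a2l, 0.0078 for Cox7b, 0.0041 for Cox8a, 0.029 for mt-Atp6, 0.042 for mt-Atp8, 0.12 for mt-Co1, 0.039 for mt-Co2, 0.0095 for mt-Co3, 0.13 for mt-Nd1, 0.065 for mt-Nd2, 0.083 for mt-Nd4, 0.11 for mt-Nd4l, 0.12 for mt-Nd5 and 0.14 for mt-Nd6, and the mitochondrial median was 0.065. With the length trend removed it was 0.056 for Atp5g1, 0.0098 for Cox6a1, 0.021 for mt-Nd1, 0.018 for mt-Nd4l and 0.029 for mt-Nd6. Weighted limma-voom gave 0.036 for Atp5g1, 0.052 for Cox6a1, -0.61 for Cox6a2 and 0.019 for mt-Nd3. Upper quartile factors gave 0.0045 for Atp5g1 and 0.0048 for mt-Nd6, and the CPM filter 0.0053 for Atp5g1 and 0.0068 for mt-Nd6. Values were -0.0085 for Uqcrb with RLE factors, -0.0085 for Uqcrb with DESeq2 and -0.88 for Cox6a2 without DKD replicate 1 and the length trend. Leave-one-out ranges that crossed 0 were -0.13 to 0.19 for Atp5g1, -0.044 to 0.15 for Atp5s, -0.17 to 0.17 for Cox6a1, -0.96 to 0.45 for Cox6a2, -0.22 to 0.074 for Cox6b1, -0.20 to 0.11 for Cox7a2, -0.23 to 0.012 for Cox7b, -0.30 to 0.11 for Cox8a, -0.064 to 0.13 for Uqcrb, -0.080 to 0.010 for mt-Co1, -0.094 to 0.0098 for mt-Nd1, -0.31 to 0.091 for mt-Nd3, -0.14 to 0.013 for mt-Nd4, -0.093 to 0.00055 for mt-Nd4l, -0.12 to 0.050 for mt-Nd5 and -0.12 to 0.091 for mt-Nd6.

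Of members with a mean under 5 CPM, Cox6a2 (18 to 112 counts per library) and Ndufs6b (32 to 63) rest on few counts, which limits their precision. Cox6b2 (145 to 521), Ndufa4l2 (102 to 365) and Cox7a1 (173 to 268) had more counts, with spread between libraries as printed above.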
